A study of Mus musculus with 30 samples.

Results

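The 34 genes described here serve the endoplasmic reticulum (ER), where secreted and membrane proteins are folded, modified and sent onward. They comprise stress sensors and factors, chaperones, disulfide isomerases and lectin chaperones, translocation and export genes, genes of ER-associated degradation, and genes that restore translation after stress. The members were taken from a list of symbols and kept where a gene held at least 10 raw counts in 5 or more libraries, a rule that all 34 met, of 55573 genes in the table. Derl3 reached 10 counts in 16 of the 30 libraries and every other member in all 30, and all 34 were among the 11718 genes tested. The libraries came from naive CD8+ T cells of C57BL/6 mice 8 weeks old, which were isolated magnetically from lymph nodes and spleen and grown in a serum-free medium for 3 days. All 30 cultures were stimulated on plates coated with anti-CD3 and anti-CD28 antibodies at 5 µg/ml each. WT and Furin KO cells, the latter called KO here, each received TGFB1 (0.5 ng/ml), IL12 (10 ng/ml) or neither, which gave 6 groups of 5 libraries. Furin encodes a protease of the secretory pathway that cleaves precursor proteins, the precursor of TGFB1 among them. The labels name neither the deleted part of Furin nor the cells or promoter of the deletion. They do not state that the libraries of a group came from separate animals, so p-values measure the spread between these libraries, which may be partly technical.

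Misfolded proteins in the ER activate the unfolded protein response through 3 membrane sensors. IRE1 (Ern1) removes an intron from Xbp1 RNA and so yields an active transcription factor, ATF6 is cut in the Golgi apparatus and enters the nucleus, and PERK (Eif2ak3) slows translation. Their joint targets are the chaperones, isomerases and degradation genes listed here, and cells that secrete much protein, effector T cells included, keep this machinery at a high level. The response runs on splicing, cleavage and phosphorylation, none of which a count of reads per gene measures.

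Library totals were 7306151 to 15502443 counts, and levels are given as CPM, counts scaled to a common library size. Values of a group are listed in the order of the numbers in the library titles, which is 62, 67, 71, 72 and 75 for WT and 63, 68, 70, 73 and 74 for KO, where 62 and 63 were the males. Furin ranged from 28.8 to 38.5 CPM in WT and from 31.5 to 33.9 CPM in KO without cytokine, so counts over the whole gene do not check the genotype label. Some libraries stood apart: WT 62 with TGFB1 lay at 20.3 on the first principal component and the other 4 of its group at 44.7 to 60.5, and with IL12 WT 71, 72 and 75 lay at -28.6 to -36.6 on the second component, against 4.75 and 0.28 for WT 62 and 67. KO 74 and 73 with IL12 lay at -32.5 and -16.2 there, and KO 63, 68 and 70 at -2.68 to -0.16. With IL12 the low libraries of both genotypes were thus those with title numbers above 70. With TGFB1, KO 68 and 74 lay at 13.6 and 17.1 on the first component and at 44.4 and 52.7 on the third, against 32.6 to 40.4 and 7.53 to 31.2 for the other 3 of their group. All 10 CD8 T cell markers were measured, with a summed level of 3435 to 6479 CPM. Of 8 B cell markers only Cd79b had enough counts to be tested, and Pax5 was at 0 in 29 libraries. Of 10 myeloid markers 2 were tested, and C1qa was at 0 in all 30. Of 9 plasma cell markers 7 were tested, and Mzb1 was at 0 in 29 libraries and Tnfrsf17 in 26. Irf4, which activated T cells also express, Txndc5 and the member Derl3 were present. So were Pou2af1 (up to 73.1 CPM), Prdm1 (up to 26.5 CPM), Sdc1 (up to 3.95 CPM) and Jchain (up to 2.93 CPM). All 3 CD4 T cell markers were tested, with a summed level of 11.7 to 33.6 CPM, and Cd4 had a median of 0.332 CPM. Of 5 NK cell markers 2 were tested, and the 5 summed to 1.60 to 46.4 CPM, highest in WT with IL12. In bulk RNA, fewer cells of a type and less RNA per cell cannot be told apart.

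The promoters of several members hold the ER stress response element (ERSE), which ATF6 and XBP1 bind together with NF-Y, and they are shown because they connect the sensors with genes described below. RefSeq windows of 250 bases before to 50 bases after the start (build GRCm38.p6) matched 28 of the 34 members. ERSE, which is CCAAT and CCACG with 9 bases of any kind between them, was searched on both strands. It was present in 9 of the 28 (32.1%), against 37 of 27025 genes with a window (0.137%). The members were listed as genes of the response that acts through this element, so these shares describe the list and are not a test. The shorter CCACG, which is also the end of ERSE, was in 24 of the 28 (85.7%) and in 35.5% of all genes. The 9 with ERSE were Hspa5, Hsp90b1, Dnajc3, Creld2, Pdia6, Calr, Canx, Syvn1 and Derl3. The related element ERSE-II, which is ATTGG and CCACG with 1 base between them, was in the windows of Dnajb11 and Herpud1, or 7.14% of the members matched and 0.0444% of all genes. Stretches of 6 windows are shown 5′ to 3′ along the gene's strand, with the fixed letters of the element in capitals. They span genes that rose and genes that fell in the comparisons below.
Hspa5: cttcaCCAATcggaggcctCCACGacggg
Canx: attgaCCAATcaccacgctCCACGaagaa
Pdia6: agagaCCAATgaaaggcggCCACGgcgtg
Dnajc3: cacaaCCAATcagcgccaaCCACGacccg
Calr: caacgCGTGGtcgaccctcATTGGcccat
Herpud1: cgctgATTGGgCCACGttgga
The stretches lie at chr2:34772020-34772048 (plus strand) for Hspa5, chr11:50325795-50325823 (minus) for Canx, chr12:17266486-17266514 (plus) for Pdia6, chr14:118937822-118937850 (plus) for Dnajc3, chr8:84847070-84847098 (minus) for Calr and chr8:94386372-94386392 (plus) for Herpud1. The first capital stands 65 bases before the RefSeq start in Hspa5, 145 in Canx, 98 in Pdia6, 105 in Dnajc3, 162 in Calr and 52 in Herpud1. Calr holds the element on the opposite strand. The core of a further XBP1 element, TGACGTGG, was in the window of Sec24d (0.714% of all genes), and the cyclic AMP element TGACGTCA was in that of Ppp1r15a (2.03%). These are matches of letters, and no binding was measured.

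In WT cells without cytokine the members were compared by level per exon length. Calreticulin (Calr), a lectin chaperone, stood highest at 348 CPM per kb, followed by the isomerases P4hb at 286 and Pdia3 at 278 and by BiP (Hspa5), the main chaperone of the ER lumen, at 252. Canx was at 203 and Hsp90b1, which encodes GRP94, at 173 CPM per kb. The sensors were far lower: Eif2ak3 was at 5.01, Atf6 at 2.38 and Ern1, the lowest member, at 0.271 CPM per kb. Xbp1 was at 67.5 CPM per kb. The lowest members next to Ern1 were Derl3 at 0.409, a degradation gene typical of secretory cells, and Sec24d at 1.66, a subunit of the coat of export vesicles.

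**Figure D1:**
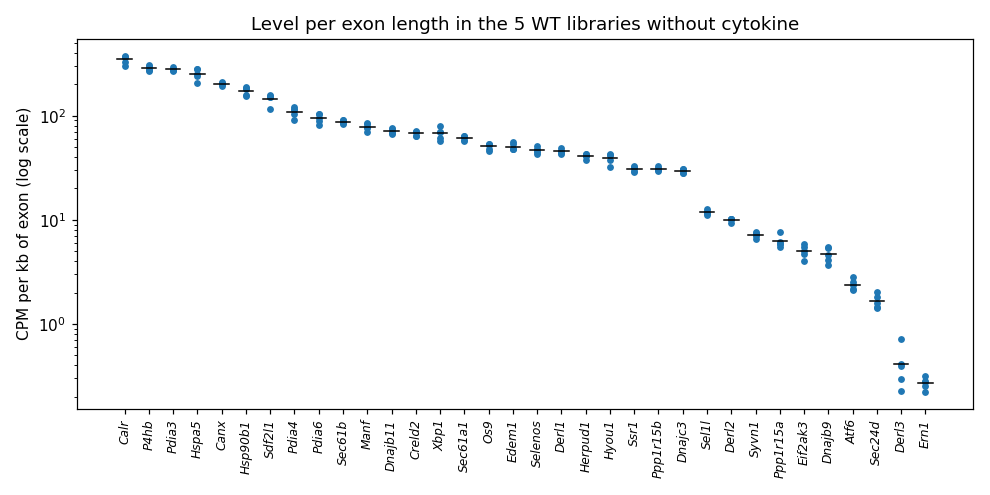
Level of each member in the 5 WT libraries without cytokine, as CPM per kb of exon on a log axis, with points for libraries and a bar for the mean. Luminal chaperones and isomerases head the order, and Atf6, Sec24d, Derl3 and Ern1 end it.

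Summed over the 34 members, their share of all counts was 0.947% ± 0.0538 (SD, n = 5) in WT and 0.990% ± 0.0277 in KO without cytokine. With TGFB1 the share was 0.904% ± 0.0602 in WT and 1.03% ± 0.0549 in KO. WT 62, the library that stood apart, had 0.987%, the highest value of its group. With IL12 the share was 1.06% ± 0.0556 in WT and 1.07% ± 0.0587 in KO. The largest gap between genotypes was thus with TGFB1, where the ranges overlapped (0.846% to 0.987% in WT and 0.959% to 1.08% in KO).

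**Figure D2:**
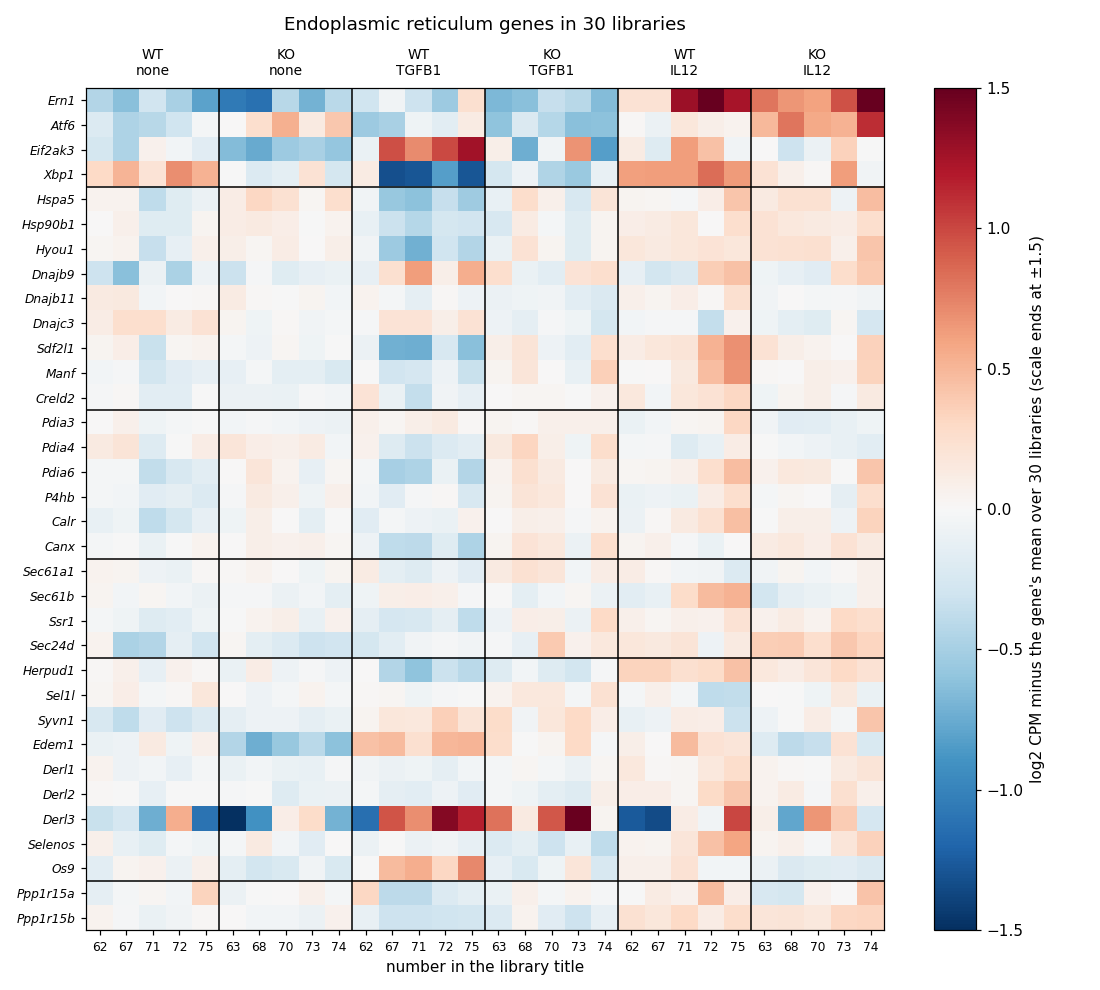
Log2 CPM of each member minus its mean over the 30 libraries, with libraries in columns by group and title number, and members in rows by role, divided by lines. In WT with TGFB1, Xbp1, Hspa5, Hyou1 and Sdf2l1 were low and Eif2ak3, Edem1 and Os9 high, with WT 62 closer to the other groups except for Edem1. Ern1 was highest with IL12.

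The question of the first comparison was how the absence of Furin shifts these genes in each culture condition. Without cytokine few members moved: Atf6 was higher in KO and Edem1 lower. With TGFB1, 12 members were higher in KO: 5 of the 9 chaperones, 4 of the 6 isomerases and lectin chaperones, Xbp1, Sec61a1 and Ssr1. Eif2ak3, Os9, Edem1 and Dnajc3 were lower. Without KO 68 and 74, Canx was the single member called higher and Os9 the single member called lower with TGFB1. With IL12, Atf6 was again higher and Edem1 again lower, joined by Sec61b.

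Without cytokine 1 member was called higher (adjusted p below 0.05 in edgeR's quasi-likelihood test) and 1 lower, against a background of 1.08% of all genes higher and 1.02% lower. The median log2 fold change of the members was -0.01, and that of all genes tested was 0.00. Without KO 68 or KO 74 neither was called, with 0.0939% and 0.0597% of genes called, and 5 members had an unadjusted p under 0.05 in each of these edgeR fits. With TGFB1, 12 of 34 were called higher and 4 lower, where 18.3% of all genes were called higher and 17.3% lower. The share of members called higher stood above that background and the share called lower below it, and the members' median was 0.11 against -0.01 for all genes. The medians and counts are descriptions of the list. Without KO 68 and 74 of the TGFB1 group, an alternative chosen after seeing the data that left 3 KO libraries, 1 member was called higher and 1 lower in place of 16 calls, and the genes called fell from 35.6% to 6.47%. With IL12, 1 member was called higher and 2 lower, against 2.76% and 4.01% of all genes, and the members' median was -0.04. No member was called with IL12 in edgeR when WT 72 and 75 were left out together, where 0.0683% of genes were called and 3 members had an unadjusted p under 0.05, and 1 was called without WT 71, 72 or 75 or KO 68 or 70 alone.

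**Figure D3:**
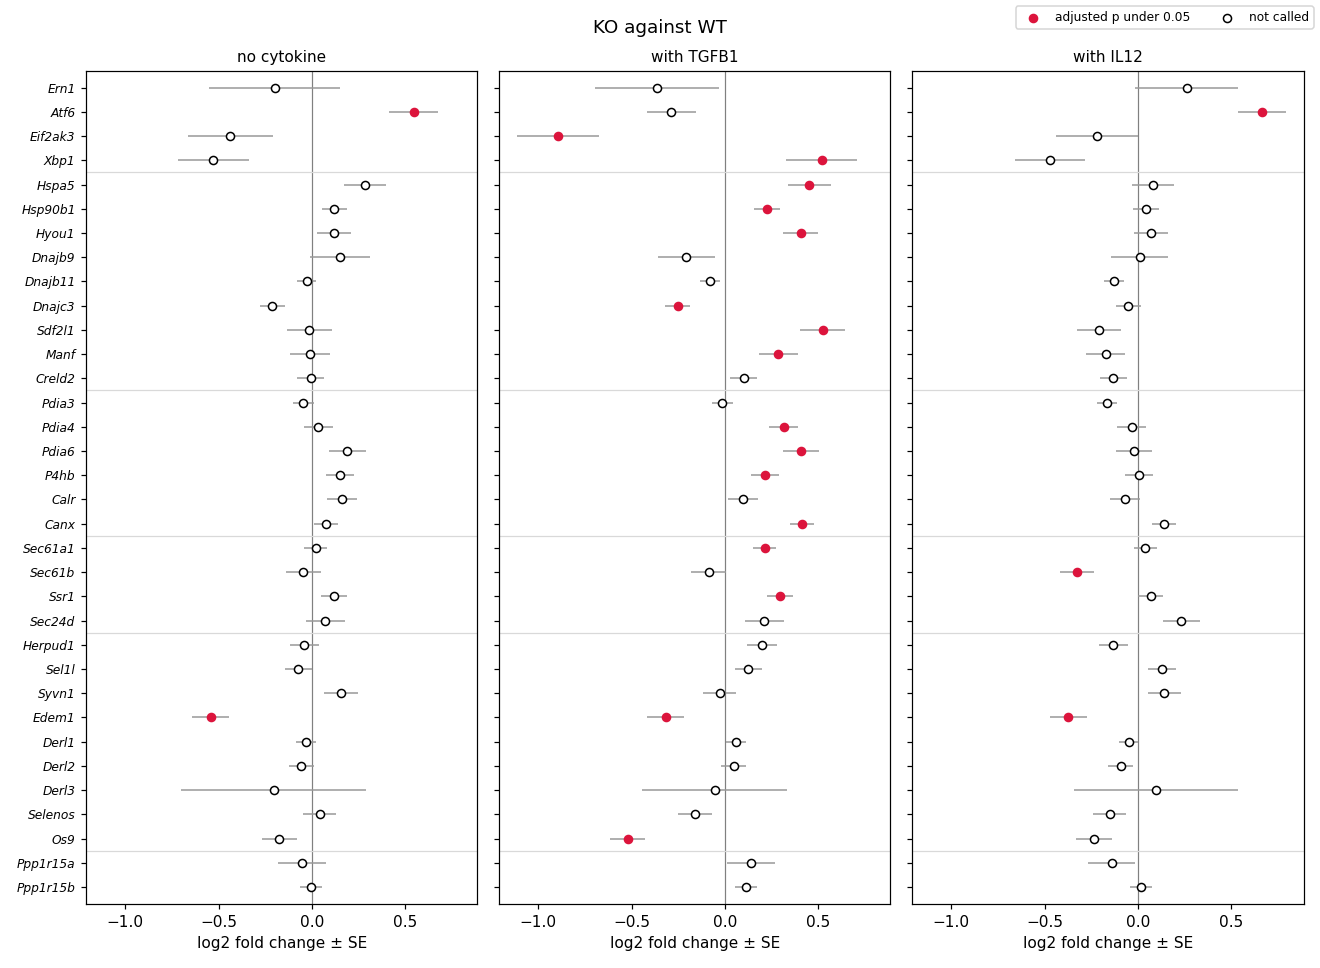
Log2 fold change of KO against WT with its standard error for each member in the 3 conditions, filled where the adjusted p was below 0.05. With TGFB1, 12 members are filled to the right of 0 and 4 to the left. Without cytokine 2 are filled and with IL12 3.

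The next question was how each cytokine shifts the members within a genotype. In WT, TGFB1 lowered Xbp1 and chaperones such as Hspa5, Hyou1 and Sdf2l1 and raised Eif2ak3, Dnajb9 and the degradation genes Syvn1, Edem1, Derl3 and Os9. In KO, TGFB1 lowered Atf6 and raised Edem1, Derl3, Sec24d and Syvn1. IL12 raised Ern1, Sec24d, Derl1 and Ppp1r15b in both genotypes, a further 9 members in WT, and Atf6 and Edem1 in KO.

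With TGFB1 in WT, 6 members were called higher and 9 lower, where 19.2% of all genes were called higher and 18.6% lower, and the members' median was -0.06. In KO, 4 were called higher and 1 lower, against 13.5% and 11% of all genes, with a median of 0.07. Leaving out a single library moved that KO count from 5 to between 2 and 7, with 2 called without KO 70 or KO 73 with TGFB1, where 20.4% of genes were called in place of 24.5%. KO 63 in either condition, and KO 68, 73 or 74 without cytokine, left 3. With IL12 in WT, 13 were called higher and 1 lower, against 10.5% and 8.3%, and 30 of 34 estimates were above 0, with a median of 0.22. That count of 14 fell to 9 without WT 71 of the group without cytokine or without WT 72 or 75 with IL12, and to 5 without WT 72 and 75 together. The share of all genes called fell alongside, from 18.9% to 13.3%, 11.3% and 12.5% for the 3 single libraries and to 6.52% without the pair. With IL12 in KO, 6 were called higher and 0 lower, against 8.49% and 5.74%, and 28 of 34 estimates were above 0, with a median of 0.15. The TGFB1 and IL12 responses of a genotype share its libraries without cytokine, and the WT response to TGFB1 shares the WT libraries with TGFB1 with the comparison of genotypes there.

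**Figure D4:**
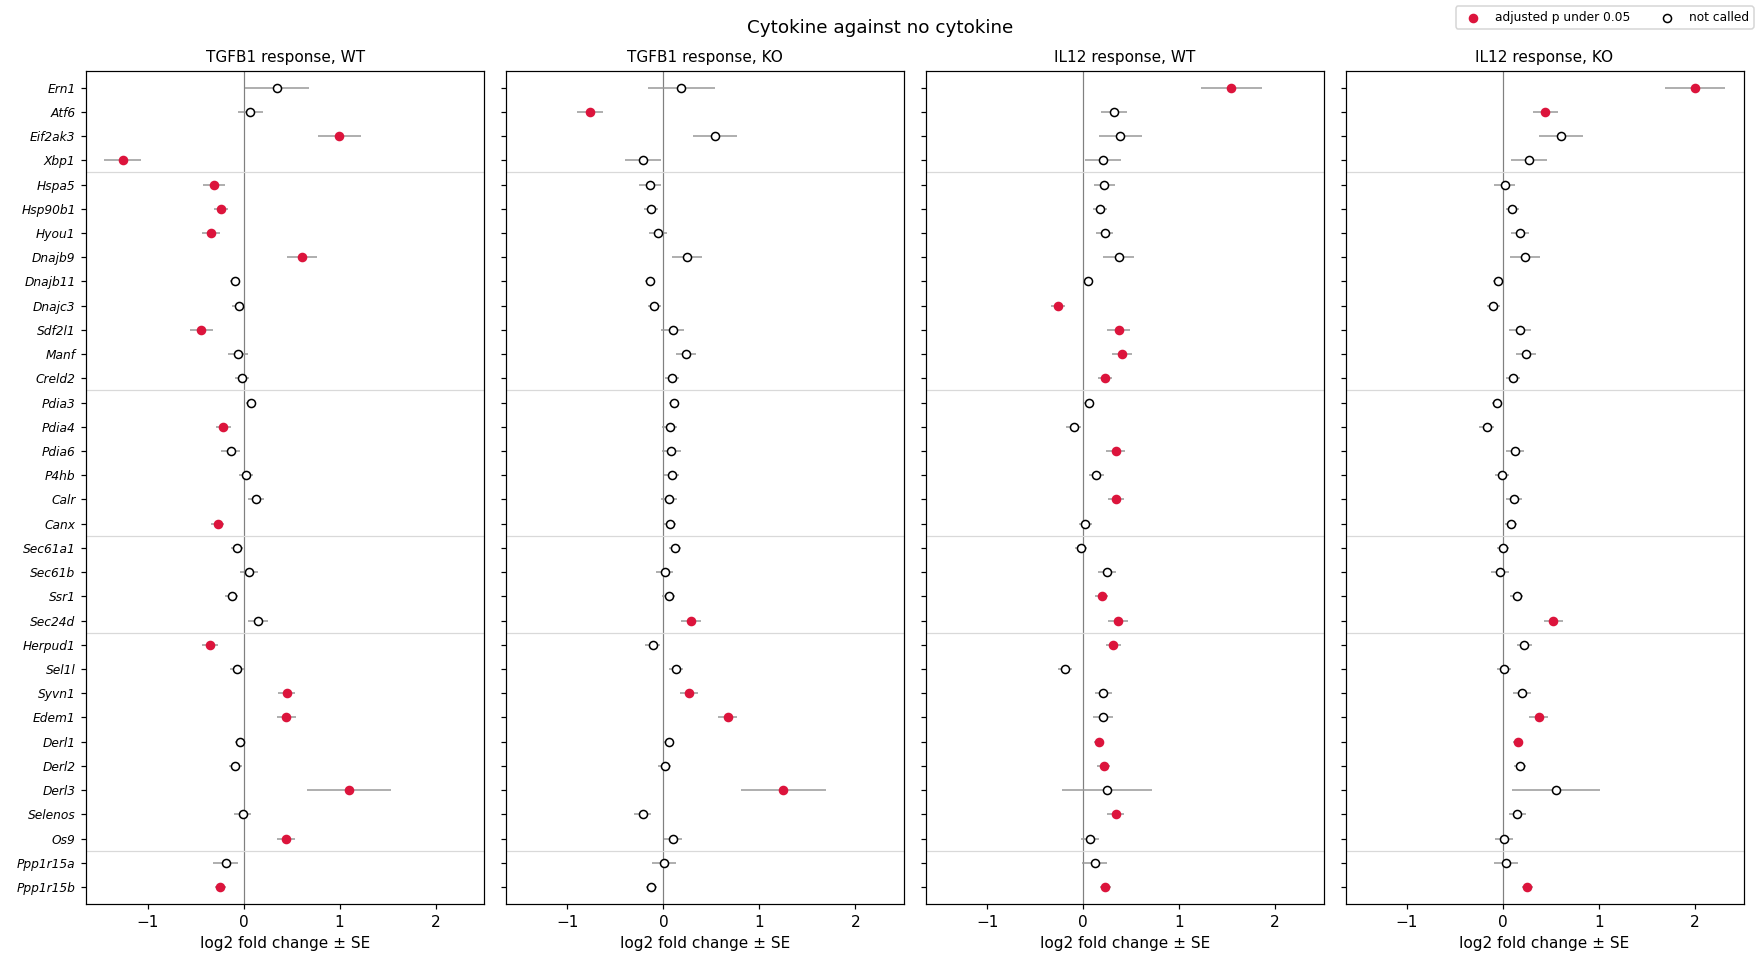
Log2 fold change of each cytokine against no cytokine with its standard error in WT and KO, filled where the adjusted p was below 0.05, on 1 common axis. Ern1 reached 1.54 and 2.01 with IL12, and Xbp1 fell to -1.26 with TGFB1 in WT.

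Whether the genotypes differed in their responses was tested directly. For TGFB1, Xbp1 (1.05 ± 0.27, adjusted p = 0.0313) and Canx (0.34 ± 0.09, adjusted p = 0.0393) had a higher response in KO than in WT and Atf6 a lower one (-0.83 ± 0.19, adjusted p = 0.0211), where 1.61% of all genes were called higher and 1.69% lower. The 3 calls became 9, with 7 higher and 2 lower, without WT 62 with TGFB1, where the genes called in both directions together rose from 3.3% to 18.4%. They became 5 without KO 73 with TGFB1, at 7.47% of genes. No member was called in edgeR without WT 75 with TGFB1, where 0.333% of genes were called and 6 members had an unadjusted p under 0.05. Without KO 68 and 74 with TGFB1, 0 members and 0 genes were called, and 5 members and 1571 genes had an unadjusted p under 0.05. A single call was left without WT 67 or 72 or KO 68, 70 or 74 of the groups without cytokine, and without WT 67 or 71 or KO 68 or 74 with TGFB1. For IL12 the difference between responses was called for 0 members (background 0% of genes higher and 0% lower). At an unadjusted p under 0.05, 1 member and 513 genes passed, and DESeq2 also called 0 members.

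Among the sensors, Ern1 (ENSMUSG00000020715, chr11:106394650-106487852, GRCm38, as for all genes here) encodes IRE1. Differences are log2 fold changes ± SE from edgeR's quasi-likelihood test, with p adjusted over the 11718 genes. It was at 2.34, 2.06, 2.59, 2.27 and 1.82 CPM in WT against 1.52, 1.46, 2.38, 1.94 and 2.40 CPM in KO without cytokine. With IL12 it was at 3.69, 3.68, 7.71, 9.68 and 7.46 CPM in WT against 5.55, 5.03, 4.83, 6.15 and 17.2 CPM in KO. Every IL12 library exceeded every library without cytokine of its genotype. IL12 raised Ern1 by 1.54 ± 0.31 (adjusted p = 0.000956) on the log2 scale in WT, or 2.92-fold, and by 2.01 ± 0.31 (adjusted p = 5.54e-05) in KO, or 4.02-fold. The high WT values were those of libraries 71, 72 and 75, and the highest KO values those of 74 and 73. These are the libraries that lay low on the second component, all with title numbers above 70. Furin itself was at 485 CPM at the median in WT with IL12, with a range of 161 to 533 CPM, and reached 463 CPM in KO against a median of 161. Without WT 72 and 75 the WT rise of Ern1 was 1.19 (adjusted p = 0.0361), in a fit that kept WT 71 at 7.71 CPM. With single libraries left out in turn, the rise was 1.35 to 1.70 in WT and 1.48 to 2.14 in KO. KO 74 with IL12, at 17.2 CPM, stood far above the rest of its group (4.83 to 6.15 CPM). The difference between the IL12 responses of the genotypes was not called. With TGFB1, Ern1 was at 2.58, 3.07, 2.56, 2.18 and 3.75 CPM in WT against 1.99, 2.05, 2.49, 2.37 and 2.03 CPM in KO, with no call against no cytokine in either genotype (0.35 ± 0.33 and 0.19 ± 0.35). KO and WT did not differ by the test in any condition, with adjusted p of 0.798, 0.402 and 0.601 in edgeR.

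Atf6 (ENSMUSG00000026663, chr1:170704674-170867771) was at 23.1, 19.3, 19.9, 21.7 and 26 CPM in WT against 26.6, 31.6, 38.5, 29.1 and 35.1 CPM in KO without cytokine, with no overlap. KO exceeded WT by 0.55 ± 0.13 (adjusted p = 0.0274), or 1.46-fold. That call was lost when any 1 of KO 68, 70 or 74 or WT 67, 71 or 72 was left out (adjusted p up to 0.11, for KO 74). With IL12 it was at 26.9, 25, 29.96, 28.2 and 27.5 CPM in WT against 37.1, 46.2, 39.2, 38.1 and 57.4 CPM in KO, again with no overlap, and KO exceeded WT by 0.67 ± 0.13 (adjusted p = 0.00436). In the TGFB1 cultures the level was 18.1, 18.99, 25.3, 23.7 and 28.8 CPM in WT against 17.4, 22.9, 19.7, 17.1 and 17.4 CPM in KO. The groups overlapped there, and the KO estimate was the lower (-0.29 ± 0.13, adjusted p = 0.0908). TGFB1 changed Atf6 in KO by -0.76 ± 0.13 (adjusted p = 7.83e-05), to below every KO library without cytokine, and left WT at 0.07 ± 0.13 (adjusted p = 0.715). The difference between those responses was called, and the call was lost when WT 75 with TGFB1 was left out (adjusted p = 0.0653). IL12 raised Atf6 in KO by 0.44 ± 0.13 (adjusted p = 0.0177), a call lost when any 1 of KO 74 with IL12 or KO 63 without cytokine was left out (adjusted p up to 0.0987, for KO 74 with IL12). The WT estimate with IL12 was 0.32 ± 0.13 (adjusted p = 0.086).

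Eif2ak3 (ENSMUSG00000031668, chr6:70844515-70905245), which encodes PERK, was at 28.1, 24.5, 35.5, 32.9 and 29.97 CPM in WT against 21.4, 20.04, 23.2, 24.1 and 22.7 CPM in KO without cytokine. Every KO library was thus below every WT library there, but the difference was not called. Under TGFB1 Eif2ak3 stood at 31.6, 65.8, 55.3, 67.3 and 80.6 CPM in WT against 35.9, 20.3, 32.6, 54.1 and 19.1 CPM in KO. All WT libraries but 62 lay at 55.3 CPM or more, and no KO library reached that. TGFB1 raised it in WT by 1.00 ± 0.22 (adjusted p = 0.00102), or 1.995-fold, and KO was below WT, with a log2 fold change of -0.89 ± 0.22 (adjusted p = 0.00311). The latter was not called in a fit of the compared groups alone (adjusted p = 0.0514). In KO the TGFB1 estimate was 0.54 ± 0.23 (adjusted p = 0.0827), and the difference between the responses was not called (-0.46 ± 0.32, adjusted p = 0.394). With IL12 it was at 36.8, 29.6, 52.2, 46 and 32.6 CPM in WT against 34.01, 27.2, 31.9, 42.9 and 33.7 CPM in KO, with no call.

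Xbp1 (ENSMUSG00000020484, chr11:5520659-5525893), the factor activated by IRE1, had its widest changes with TGFB1. It was at 197, 228, 184, 259 and 229 CPM in WT against 159, 139, 145, 185 and 133 CPM in KO without cytokine. With TGFB1 it was at 174, 63.9, 65.4, 89.8 and 65.6 CPM in WT against 133, 151, 117, 108 and 148 CPM in KO. WT 62 stood far above the other 4 WT libraries with TGFB1, which were all below every KO library. TGFB1 changed Xbp1 in WT by -1.26 ± 0.19 (adjusted p = 1.91e-05), a level 2.39-fold lower, and all 5 libraries were below every WT library without cytokine. In KO the estimate was -0.21 ± 0.19 (adjusted p = 0.446). With TGFB1, KO exceeded WT by 0.52 ± 0.19 (adjusted p = 0.034), a call lost when any 1 of KO 68 or 74 or WT 67, 71, 72 or 75 was left out (adjusted p up to 0.111, for WT 71). Without WT 62 that difference was 0.88 (adjusted p = 1.18e-05), and the WT fall was -1.62 (adjusted p = 5.81e-10). The difference between the TGFB1 responses was lost when any 1 of KO 68 or 74 with TGFB1, WT 67, 71 or 75 with TGFB1, KO 68, 70 or 74 without cytokine or WT 67 or 72 without cytokine was left out (adjusted p up to 0.0783, for WT 75 with TGFB1), and without WT 62 it was 1.41 (adjusted p = 6.98e-05). In the other conditions KO was estimated below WT with no call, at -0.53 ± 0.19 (adjusted p = 0.128) without cytokine and -0.47 ± 0.19 (adjusted p = 0.119) with IL12. With IL12 Xbp1 was at 244, 246, 246, 285 and 248 CPM in WT against 186, 169, 162, 247 and 154 CPM in KO, and neither genotype's IL12 response was called. The counts do not separate spliced from unspliced Xbp1.

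**Figure D5:**
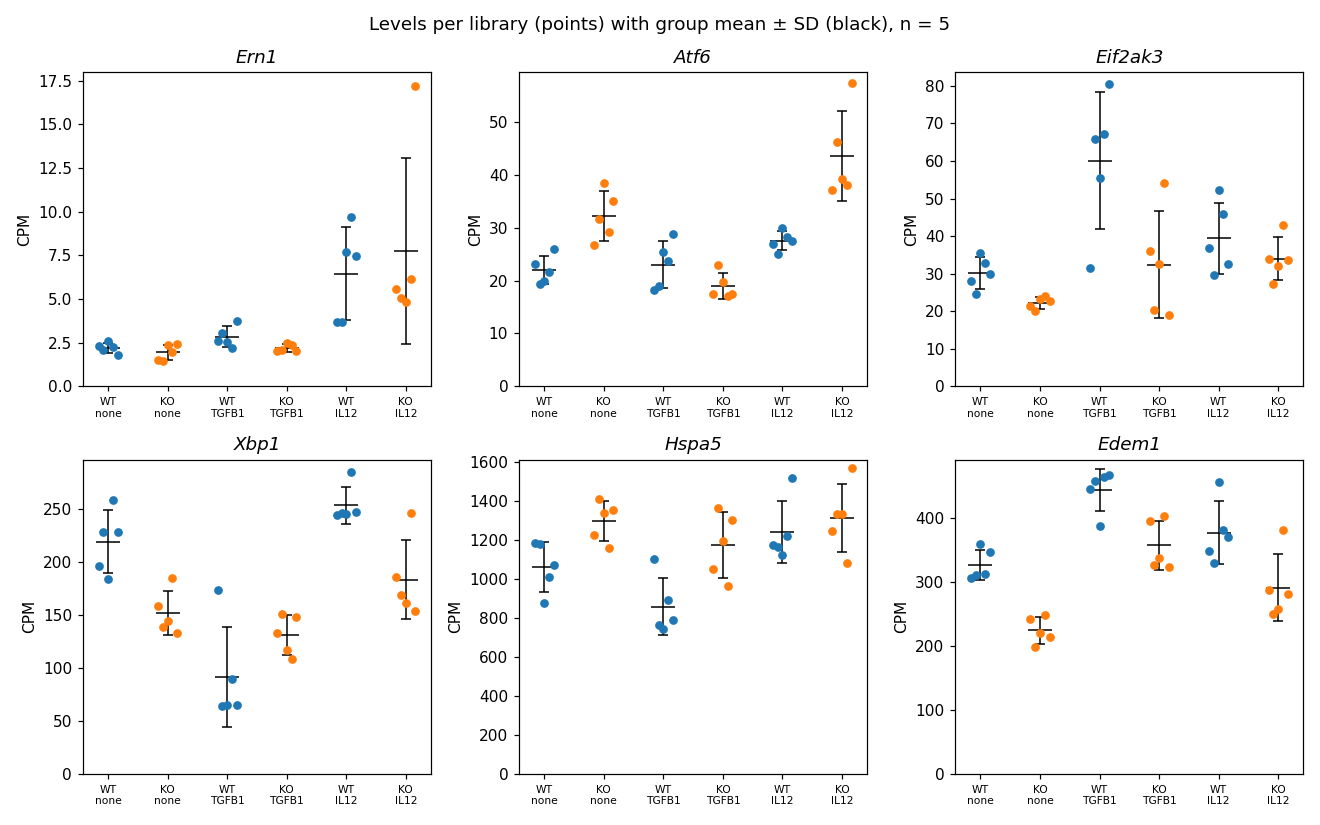
CPM of Ern1, Atf6, Eif2ak3, Xbp1, Hspa5 and Edem1 in each of the 30 libraries (points, WT blue and KO orange) with the group mean and SD, n = 5. Atf6 was higher in KO than in WT except with TGFB1, Edem1 was lower in KO in each condition, and WT 62 is the high point of Xbp1 in WT with TGFB1.

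Of the 9 chaperones and co-factors, 5 were called higher and 1 lower in KO against WT with TGFB1 (18.3% and 17.3% of all genes). With TGFB1 in WT 1 was higher and 4 lower (19.2% and 18.6%), and in KO 0 were called (13.5% and 11%). With IL12 in WT 3 were higher and 1 lower (10.5% and 8.3%), and in KO 0 were called (8.49% and 5.74%). Hspa5 (ENSMUSG00000026864, chr2:34771970-34777547), which encodes BiP, was at 1183, 1178, 876, 1008 and 1074 CPM in WT against 1227, 1409.8, 1338, 1159 and 1356 CPM in KO without cytokine. In cultures with TGFB1 it was at 1100.2, 766, 742, 895 and 788 CPM in WT against 1051, 1367, 1197, 962 and 1302 CPM in KO. The 4 WT libraries other than 62 were below every KO library. KO exceeded WT by 0.45 ± 0.11 (adjusted p = 0.00336), or 1.37-fold. TGFB1 changed it in WT by -0.31 ± 0.11 (adjusted p = 0.0314), a call lost when any 1 of WT 67, 71 or 75 with TGFB1 or WT 62, 67 or 75 without cytokine was left out (adjusted p up to 0.0997, for WT 71 with TGFB1). With IL12 it was at 1176, 1164, 1123, 1222 and 1518 CPM in WT against 1248, 1331, 1336, 1084 and 1569 CPM in KO, with no call between genotypes or against no cytokine.

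Hyou1, a nucleotide exchange factor of BiP, followed Hspa5. It was at 284, 203, 180.0, 241 and 218 CPM in WT against 277, 343, 305, 261 and 306 CPM in KO with TGFB1, and KO exceeded WT by 0.41 ± 0.09 (adjusted p = 0.0018). In WT without cytokine it was at 303, 307, 232, 273 and 311 CPM, and TGFB1 changed it by -0.34 ± 0.09 (adjusted p = 0.00491). Sdf2l1, a partner of BiP and its J-proteins, was at 155, 99.3, 98.9, 139 and 106 CPM in WT against 174, 188, 155, 147 and 196 CPM in KO with TGFB1. KO exceeded WT by 0.53 ± 0.12 (adjusted p = 0.00188), and only WT 62 reached into the KO range. In WT without cytokine Sdf2l1 was at 168, 175, 129.9, 167 and 170.5 CPM, and TGFB1 changed it by -0.44 ± 0.12 (adjusted p = 0.00517). With IL12 Sdf2l1 was at 177, 185, 187, 236 and 264 CPM in WT, above every WT library without cytokine, a rise of 0.37 ± 0.12 (adjusted p = 0.0279). That rise was lost when any 1 of WT 72 or 75 with IL12 or WT 71 without cytokine was left out (adjusted p up to 0.128, for WT 75 with IL12), and without WT 72 and 75 it was 0.17 (adjusted p = 0.455).

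Dnajc3, which encodes a J-protein co-chaperone of BiP, went the other way. It was at 131, 153, 153, 142 and 154 CPM in WT against 126, 121, 131, 127 and 111 CPM in KO with TGFB1, with no overlap, and KO was lower, with a log2 fold change of -0.25 ± 0.07 (adjusted p = 0.00578). Without cytokine the ranges did not overlap either, at 144, 158, 158, 145 and 154 CPM in WT against 137, 127, 134, 128 and 129.9 CPM in KO, but the difference was not called (-0.21 ± 0.07, adjusted p = 0.0929). Dnajc3 was the single member that IL12 lowered in WT (-0.26 ± 0.07, adjusted p = 0.0075), to 129, 131, 131, 104 and 139 CPM. Hsp90b1 rose in KO against WT with TGFB1 (0.23 ± 0.07) and fell with TGFB1 in WT (-0.24 ± 0.07). The first of these calls was lost when KO 68 was left out (adjusted p = 0.0551), and Hsp90b1 overlaps a gene on the opposite strand over 10.3% of its exon length, where the strand setting of the counting is not given in the sources used here. Manf, Syvn1, Derl2 and Ppp1r15b overlap an opposite gene that was tested over 4.14%, 1.87%, 2.87% and 11.4%. Among opposite genes not tested, the largest overlaps were over 8.16% of Sec61a1, 8.05% of Eif2ak3 and 4.71% of Manf. Those genes held 9, 2 and 191 counts in all libraries together. Manf, a secreted protein of stressed cells, exceeded WT in KO with TGFB1 (0.29 ± 0.11), a call lost when any 1 of KO 68 or 74 or WT 67, 71 or 75 was left out (adjusted p up to 0.136, for KO 74). IL12 raised Manf in WT by 0.41 ± 0.11 (adjusted p = 0.00742) and Creld2 by 0.23 ± 0.07 (adjusted p = 0.0264), and the call of Creld2 was lost when any 1 of WT 72 or 75 with IL12 or WT 71 or 72 without cytokine was left out (adjusted p up to 0.0962, for WT 75 with IL12). Without WT 72 and 75 both were lost, at 0.17 (adjusted p = 0.301) for Manf and 0.16 (adjusted p = 0.256) for Creld2. Dnajb9, a J-protein that represses IRE1, rose with TGFB1 in WT by 0.61 ± 0.16 (adjusted p = 0.0037). Dnajb11, a further J-protein, was called in no comparison.

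Of the 6 isomerases and lectin chaperones, 4 were higher in KO than in WT with TGFB1. Calnexin (Canx), which holds glycoproteins at the ER membrane during folding, was at 913, 740.0, 734, 852 and 699 CPM in WT against 995, 1112, 1077, 909.8 and 1150.4 CPM in KO. KO exceeded WT by 0.41 ± 0.06 (adjusted p = 0.000119), or 1.33-fold, and WT 62 alone reached into the KO range. Without cytokine Canx was at 941, 957, 898, 960.3 and 995 CPM in WT, and TGFB1 changed it by -0.27 ± 0.06 (adjusted p = 0.00175). Its difference between the TGFB1 responses was lost when any 1 of KO 68, 70 or 74 with TGFB1, WT 67, 71 or 75 with TGFB1, KO 63, 68, 70 or 74 without cytokine or WT 62, 67, 72 or 75 without cytokine was left out (adjusted p up to 0.0959, for WT 75 with TGFB1). The isomerases Pdia4 (0.32 ± 0.08), Pdia6 (0.41 ± 0.10) and P4hb (0.21 ± 0.07) were the other 3, and the ranges of Pdia6 did not overlap. The call of P4hb was lost when any 1 of KO 68 or 74 or WT 67 or 75 was left out (adjusted p up to 0.0916, for WT 75). In WT, TGFB1 changed Pdia4 by -0.21 ± 0.08 (adjusted p = 0.0307), a call lost when any 1 of WT 67, 71, 72 or 75 with TGFB1 or WT 62, 67 or 75 without cytokine was left out (adjusted p up to 0.107, for WT 71 with TGFB1).

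Calr was at 1052, 1088, 874, 949.9 and 1047 CPM in WT without cytokine and 1076, 1151, 1249, 1330.0 and 1556 CPM in WT with IL12. The groups overlapped, and the rise was 0.34 ± 0.08 (adjusted p = 0.00367). Its value without WT 72 and 75 was 0.21 (adjusted p = 0.12). Pdia6 rose with IL12 in WT by 0.34 ± 0.10 (adjusted p = 0.0147), lost when any 1 of WT 75 with IL12 or WT 71 without cytokine was left out (adjusted p up to 0.0729, for WT 75 with IL12), and was at 0.20 (adjusted p = 0.255) without WT 72 and 75. Pdia3, the partner of calnexin and calreticulin, was called in no comparison.

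Translocation genes showed small shifts. Sec61a1, the channel subunit, exceeded WT in KO with TGFB1 by 0.21 ± 0.06 (adjusted p = 0.00976), and Ssr1, a channel-associated subunit, by 0.30 ± 0.07 (adjusted p = 0.00197) with no overlap. Sec61b, a small channel subunit, was at 101, 104, 137, 157 and 162 CPM in WT against 92.9, 103, 105, 108 and 119 CPM in KO with IL12. WT 71, 72 and 75 were high, and WT 62 and 67 lay within the KO range. KO was lower, with a log2 fold change of -0.32 ± 0.09 (adjusted p = 0.0318), a call lost when any 1 of KO 63, 68 or 70 or WT 71, 72 or 75 was left out (adjusted p up to 0.147, for WT 75). Without WT 72 and 75 the difference was -0.10 (adjusted p = 0.601). Ssr1 rose with IL12 in WT by 0.19 ± 0.07 (adjusted p = 0.045), a call lost when any 1 of WT 71, 72 or 75 with IL12 or WT 67, 71, 72 or 75 without cytokine was left out (adjusted p up to 0.135, for WT 75 with IL12). Without WT 72 and 75 it was 0.16 (adjusted p = 0.24).

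Sec24d, a cargo-binding subunit of the COPII coat, was at 12.9, 8.94, 9.19, 11.4 and 10.1 CPM in WT against 12.8, 11.3, 10.8, 10.04 and 10.2 CPM in KO without cytokine. With IL12 it was at 14.1, 13.8, 14.3, 11.8 and 13.7 CPM in WT against 16.1, 16.3, 14.8, 16.6 and 15.7 CPM in KO. The KO ranges did not overlap, and IL12 raised Sec24d by 0.53 ± 0.10 (adjusted p = 0.000734) in KO, or 1.44-fold, and by 0.36 ± 0.10 (adjusted p = 0.0149) in WT. With TGFB1 the libraries were at 12.4, 11.4, 16.4, 13.1 and 13.9 CPM in KO, a rise of 0.29 ± 0.10 (adjusted p = 0.0429). That rise was lost when any 1 of KO 70, 73 or 74 with TGFB1 or KO 68, 70, 73 or 74 without cytokine was left out (adjusted p up to 0.166, for KO 70 with TGFB1).

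In ER-associated degradation, Edem1 (ENSMUSG00000030104, chr6:108828641-108859356), a lectin that hands misfolded glycoproteins to the degradation complex, differed between genotypes in each condition. It was at 306, 310.5, 358, 312 and 346 CPM in WT against 242, 197, 221, 248 and 213 CPM in KO without cytokine, with no overlap. KO was lower, with a log2 fold change of -0.54 ± 0.10 (adjusted p = 0.0105), or 1.46-fold, a call lost when any 1 of KO 68 or 74 was left out (adjusted p up to 0.054, for KO 68). With TGFB1 it was at 444, 457, 387, 464 and 467 CPM in WT against 394, 326, 337, 403 and 324 CPM in KO. KO was lower, with a log2 fold change of -0.32 ± 0.10 (adjusted p = 0.0149), a call lost when KO 74 was left out (adjusted p = 0.0512). With IL12 it was at 347, 329, 456, 381 and 370.3 CPM in WT against 286, 249, 258, 381 and 281 CPM in KO, where KO 73 lay within the WT range. KO was lower, with a log2 fold change of -0.37 ± 0.10 (adjusted p = 0.0247), a call lost when any 1 of KO 68 or 70 or WT 71, 72 or 75 was left out (adjusted p up to 0.0866, for KO 68). TGFB1 raised Edem1 above every library without cytokine in both genotypes, by 0.44 ± 0.10 (adjusted p = 0.0011) in WT and 0.67 ± 0.10 (adjusted p = 1.07e-05) in KO, and the difference between these rises was not called (0.23 ± 0.14). IL12 raised it in KO by 0.38 ± 0.10 (adjusted p = 0.0103), a call lost when KO 73 with IL12 was left out (adjusted p = 0.0534).

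Os9, another lectin of that complex, was at 134, 187, 196, 167 and 222 CPM in WT against 123, 114, 128, 153 and 113 CPM in KO with TGFB1. WT 62 lay within the KO range. KO was lower, with a log2 fold change of -0.52 ± 0.09 (adjusted p = 0.000364), or 1.43-fold. In WT without cytokine Os9 was at 119.9, 138, 141, 127 and 142 CPM, and TGFB1 raised it by 0.44 ± 0.09 (adjusted p = 0.000648). Syvn1, the ubiquitin ligase HRD1, was at 35.3, 32.1, 37.1, 33.6 and 36.1 CPM in WT against 37.9, 39.4, 39.7, 38 and 38.95 CPM in KO without cytokine. In TGFB1 cultures it was at 43.01, 46.95, 46.7, 53.5 and 47.7 CPM in WT against 50.5, 40.1, 46.97, 51.2 and 44.7 CPM in KO. TGFB1 thus raised every library above the range without cytokine in each genotype, by 0.45 ± 0.09 (adjusted p = 0.000374) in WT and 0.27 ± 0.09 (adjusted p = 0.0289) in KO. The KO call was lost when any 1 of KO 63, 70 or 73 with TGFB1 or KO 63 or 73 without cytokine was left out (adjusted p up to 0.0841, for KO 73 with TGFB1).

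Herpud1, a membrane scaffold of the degradation complex, was at 96.2, 100.4, 87.5, 99.5 and 96.3 CPM without cytokine, 95.9, 70.1, 62.5, 76.5 and 71.9 CPM with TGFB1 and 120.2, 121, 112, 115 and 129 CPM with IL12 in WT. It changed with TGFB1 by -0.35 ± 0.08 (adjusted p = 0.00121) and with IL12 by 0.31 ± 0.08 (adjusted p = 0.00588), with no overlap in the latter case. Derl3, a derlin of secretory cells, was near the limit of measurement, at 0.779, 0.822, 0.589, 1.44 and 0.454 CPM in WT against 0.268, 0.522, 1.06, 1.19 and 0.599 CPM in KO without cytokine. In the TGFB1 cultures the level was 0.448, 1.89, 1.59, 2.56 and 2.21 CPM in WT against 1.73, 1.08, 1.87, 2.75 and 1.01 CPM in KO. The ranges overlapped in both genotypes, and TGFB1 raised it by 1.10 ± 0.44 (adjusted p = 0.0469) in WT and 1.25 ± 0.45 (adjusted p = 0.0398) in KO. The WT call was lost when any 1 of WT 67, 71, 72 or 75 with TGFB1 or WT 62, 67, 71 or 75 without cytokine was left out (adjusted p up to 0.12, for WT 72 with TGFB1). The KO call was lost when any 1 of KO 63, 70 or 73 with TGFB1 or KO 63, 68 or 74 without cytokine was left out (adjusted p up to 0.141, for KO 73 with TGFB1). Among the other degradation genes, IL12 raised Selenos (0.34 ± 0.09, adjusted p = 0.00732), Derl1 (0.17 ± 0.05, adjusted p = 0.0226) and Derl2 (0.21 ± 0.07, adjusted p = 0.0264) in WT. Without WT 72 and 75 none of these 3 was called, with adjusted p of 0.274, 0.264 and 0.436. Derl1 also rose with IL12 in KO (0.15 ± 0.05, adjusted p = 0.0461), a call lost when any 1 of KO 63, 73 or 74 with IL12 or KO 63, 68, 70 or 73 without cytokine was left out (adjusted p up to 0.164, for KO 74 with IL12). Among single libraries, the WT call of Derl1 was lost when any 1 of WT 72 or 75 with IL12 or WT 67 or 72 without cytokine was left out (adjusted p up to 0.0908, for WT 75 with IL12) and that of Derl2 when any 1 of WT 72 or 75 with IL12 or WT 71 without cytokine was left out (adjusted p up to 0.122, for WT 75 with IL12). Sel1l, the adaptor of HRD1, was called in no comparison.

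The recovery of translation depends on PPP1R15A and PPP1R15B, which direct a phosphatase to the factor that PERK phosphorylates. Ppp1r15b was at 182, 172, 164, 169 and 178 CPM without cytokine, 162, 141, 141, 142 and 145 CPM with TGFB1 and 205, 197, 215, 189.8 and 209.6 CPM with IL12 in WT. The 3 ranges did not overlap: it changed with TGFB1 by -0.24 ± 0.06 (adjusted p = 0.00226) and with IL12 by 0.23 ± 0.06 (adjusted p = 0.00689). In KO it was at 176, 170.4, 170.5, 165 and 183 CPM without cytokine and 199, 199.9, 195, 217 and 219 CPM with IL12, a rise of 0.25 ± 0.06 (adjusted p = 0.00415). Ppp1r15a was called in no comparison.

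Library 62 of WT with TGFB1 had a place of its own in several of these results. Of the 12 members higher in KO than in WT with TGFB1, it had the highest WT value for 10, and of the 4 lower it had the lowest WT value for 3. Of the 9 members that TGFB1 lowered in WT it had the highest value for all 9, and of the 6 raised the lowest value for 5. With it left out, 20 members were called in KO against WT with TGFB1 (15 higher and 5 lower) in place of 16, as the background rose from 35.6% to 45.8% of genes in both directions together. KO 68 and 74 with TGFB1 held the 2 highest values of their group for Hspa5, Hyou1, Sdf2l1 and Canx. Without both, KO still exceeded WT in Canx by 0.34 (adjusted p = 0.00966) and Os9 was at -0.43 (adjusted p = 0.0228). The estimates of Hspa5 (0.32, adjusted p = 0.106), Hyou1 (0.32, adjusted p = 0.0579), Sdf2l1 (0.41, adjusted p = 0.0626), Pdia6 (0.36, adjusted p = 0.0547) and Xbp1 (0.38, adjusted p = 0.268) kept their sign without a call. So did those of Eif2ak3 (-0.55, adjusted p = 0.103), Edem1 (-0.23, adjusted p = 0.198) and Dnajc3 (-0.20, adjusted p = 0.109). The summed plasma cell list, which holds the member Derl3, was 354 to 794 CPM in WT and 541 to 975 CPM in KO with TGFB1. Without cytokine it was 561 to 798 CPM in WT and 795 to 901 CPM in KO. With IL12, where the members' share of counts was highest in both genotypes, the list was at 627 to 810 CPM in WT and 766 to 820 CPM in KO. Irf4 made up most of it, at a median of 555.5 CPM over the 30 libraries. The summed CD8 markers were 4566 to 6479 CPM in WT and 3930 to 4702 CPM in KO with TGFB1, where the ranges overlapped. Without cytokine they were 4255 to 4759.5 CPM in WT and 3731 to 4232 CPM in KO, with no overlap. With IL12 the CD8 sums did not overlap either, at 4256 to 4604 CPM in WT and 3435 to 3943 CPM in KO. Their part in the results was not tested.

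Further genes of the pathway, grouped in 7 lists with no member among them, are given by the same counts. In KO against WT with TGFB1, where 18.3% of all genes were called higher and 17.3% lower, folding enzymes and lectins had 7 higher and 3 lower of 21, led by the disulfide isomerase Txndc5 (0.61 ± 0.09) and the BiP exchange factor Sil1 (0.49 ± 0.09). The oligosaccharyltransferase had 5 higher and 0 lower of 12, Magt1 among them (0.29 ± 0.08). Translocation and signal peptide genes had 5 higher and 2 lower of 20, with the receptor subunit Srpr up (0.36 ± 0.09) and the peptidase subunit Sec11c down (-0.40 ± 0.09). COPII and cargo receptor genes had 5 higher and 1 lower of 22, with the cargo receptor Lman1 (0.42 ± 0.08) and Sec24a (0.82 ± 0.16) up. Other degradation genes had 1 higher and 2 lower of 20, the lectin Erlec1 down (-0.42 ± 0.10). Stress transcription factors and targets downstream of PERK, the PERK-downstream list below, had 4 higher and 1 lower of 10. Nupr1 (1.40 ± 0.28) and Sesn2 (0.54 ± 0.16) were higher and the death-linked factor Ddit3 lower (-0.61 ± 0.20). Other regulators of the response had 2 higher and 3 lower of 17.

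With TGFB1 in WT, against 19.2% of all genes higher and 18.6% lower, the PERK-downstream list had 1 higher and 6 lower of 10, with Trib3 (-1.37 ± 0.23) and the translation-controlled factor Atf4 (-0.91 ± 0.18) down and Nupr1 up (0.89 ± 0.33), while Eif2ak3 itself was higher. COPII genes had 2 higher and 6 lower of 22, translocation genes 2 higher and 4 lower of 20, folding enzymes 4 higher and 4 lower of 21 and other degradation genes 3 higher and 2 lower of 20. Other regulators had 6 higher and 2 lower of 17, the ER-bound factor Creb3 up (0.73 ± 0.12), and the oligosaccharyltransferase 1 higher and 2 lower of 12. In KO with TGFB1, against 13.5% higher and 11% lower, folding enzymes had 7 higher and 0 lower of 21 and other regulators 5 higher and 0 lower of 17, the protease Mbtps1 that cleaves ATF6 among them (0.29 ± 0.06). Nupr1 rose in KO by 2.84 ± 0.32 and Atf4 fell (-0.48 ± 0.18). Translocation genes had 3 higher and 1 lower of 20, the oligosaccharyltransferase 1 higher and 0 lower of 12, other degradation genes 3 higher and 2 lower of 20, COPII genes 4 higher and 1 lower of 22 and PERK-downstream genes 1 higher and 1 lower of 10. The difference between the TGFB1 responses was called for 1.61% of all genes higher in KO and 1.69% lower. COPII genes had 3 higher of 22, Sar1b (0.71 ± 0.17) and Sec24a (0.95 ± 0.23) among them. Folding enzymes had 2 of 21 (Sil1 and Txndc5) and translocation genes 1 of 20 (Spcs2). PERK-downstream genes had 1 of 10 (Nupr1) and other regulators 1 of 17 (Eif2ak4). No gene of the 7 lists was called lower. In this comparison 0 genes were called without KO 68 and 74 with TGFB1, and 0.333% without WT 75 with TGFB1.

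With IL12 in WT, against 10.5% of all genes higher and 8.3% lower, folding enzymes had 3 higher and 1 lower of 21. Fkbp11 (2.11 ± 0.48) and the oxidase Ero1l (0.61 ± 0.14) were up. Fkbp11 was near the limit of measurement, at a mean of 0.59 CPM in WT without cytokine and 2.55 CPM with IL12. COPII genes had 4 higher and 0 lower of 22 and translocation genes 2 higher and 1 lower of 20. Other degradation genes had 2 higher and 1 lower of 20 and other regulators 2 higher and 3 lower of 17. The oligosaccharyltransferase had 1 higher and 0 lower of 12 and PERK-downstream genes 0 higher and 1 lower of 10. In KO, Ero1l (0.44 ± 0.14) and the cargo receptor subunit Mcfd2 (0.42 ± 0.12) rose, and each of the 7 lists had at most 2 genes higher and at most 1 lower, against 8.49% and 5.74% of all genes. Between genotypes without cytokine, where 1.08% of all genes were higher and 1.02% lower, Atf6b, the relative of Atf6, was higher in KO (0.36 ± 0.09) and Herpud2 lower (-0.29 ± 0.08), and no other gene of these lists was called. With IL12 (2.76% of all genes higher and 4.01% lower), Atf6b was again higher (0.33 ± 0.09) and Ddit3 lower (-0.79 ± 0.21), with 0 higher and 3 lower of 21 in folding enzymes and 2 higher and 2 lower of 20 in other degradation genes. Translocation genes had 0 higher and 1 lower of 20 there, the oligosaccharyltransferase 0 higher and 1 lower of 12, COPII genes 0 higher and 0 lower of 22, PERK-downstream genes 0 higher and 1 lower of 10 and other regulators 1 higher and 0 lower of 17. For the difference between IL12 responses 0 genes of the 7 lists were called in edgeR.

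Read by promoter, the 9 members with an ERSE match had 4 called higher and 1 lower in KO against WT with TGFB1, with a median of 0.10, where 18.3% of all genes were called higher and 17.3% lower. The 19 with a window and no match had 5 higher and 3 lower, with a median of 0.05, and the 6 without a window had 3 higher and 0 lower. With TGFB1 in WT the ERSE members had 2 higher and 3 lower and the 19 others 4 higher and 4 lower, against 19.2% and 18.6% of all genes, and the 6 without a window had 0 higher and 2 lower. Hspa5, Canx and Pdia6, whose elements are printed above, were higher in KO with TGFB1, and Dnajc3, which holds the same element, was lower.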

How the data were processed

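The deposited table held raw counts of reads per Ensembl gene in whole numbers for 30 libraries. The tools STAR, Trim Galore, FastQC and DESeq2 1.24.0 and the build GRCm38 are named per the submitters' processing notes. Per the labels' protocols, libraries were made with a directional kit after poly(A) purification. Not given in the sources used here are the annotation release, the counting tool and its setting for strand. Symbols, positions and exon lengths were taken from GENCODE vM21 for 55480 of 55573 genes, and promoter windows from RefSeq (GRCm38.p6).

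The fit used edgeR 4.0.16 under R 4.3.3 (filterByExpr with a minimum count of 10, TMM factors, quasi-likelihood fit with a mean per group over all 30 libraries, two-sided tests). Benjamini-Hochberg adjustment ran over the 11718 genes kept, which held 99.88% of counts, and a gene was called at an adjusted p below 0.05. The biological coefficient of variation was 14.3%. Library totals were 7306151 to 15502443. No pair of libraries of a group agreed closely enough to be copies. The test was tried on simulated counts.

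All 34 members may be named. Values per library are given for Hspa5, Xbp1, Ern1, Atf6 and Eif2ak3 and, per comparison, for the called members with the 3 smallest p in each direction. Of 7 other pathway lists at most 2 called genes per direction and comparison are named. The members and lists were chosen with earlier results of these data known. ERSE-II was added to the motifs after the design was set. Alternatives were DESeq2 size factors, other filters, terms for sex and for title numbers above 70, a replicate block, limma 3.58.1 for its genotype comparisons, DESeq2 1.42.0, the compared groups alone, and fits without single libraries or without WT 72 and 75 with IL12, and, chosen after seeing the data, without KO 68 and 74 with TGFB1.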

Additional observations from a re-analysis of the deposited data

Results flagged for a closer look

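Among 18 members and 6 groups, the highest or lowest library of 10 of 108 groups of 5 stood apart from the rest by Dixon's test (critical value 0.71). Chance alone gives about 1 in 20 for independent values. The members share the same 30 libraries and were picked in part by small p in these data, so the 10 cannot be judged against that rate. With TGFB1 in WT these were library 62 for Xbp1 (174 CPM) and for Ppp1r15b (162 CPM), both high, and library 71 for Edem1 (387 CPM), low. With IL12 in WT they were library 75 for Hspa5 (1518 CPM) and library 72 for Xbp1 (285 CPM), both high, and library 72 for Dnajc3 (104 CPM) and Sec24d (11.8 CPM), both low. With IL12 in KO they were library 74 for Ern1 (17.2 CPM) and library 73 for Edem1 (381 CPM), both high. In WT without cytokine library 71 was low for Sdf2l1 (129.9 CPM).

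The response to TGFB1 differed between genotypes by the test of the difference itself for 3 members. It was lower in KO than in WT for Atf6, by -0.83 on the log2 scale, and higher for Xbp1, by 1.05, and for Canx, by 0.34. Without KO 68 and 74 with TGFB1 none of these 3 was called in edgeR (-0.90, 0.91 and 0.26, adjusted p = 0.0807, 0.174 and 0.219). TGFB1 lowered Atf6 in KO alone among the calls, and lowered Xbp1 and Canx in WT alone among the calls.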

How the results depend on the processing

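Of 64 calls of members, 22 held under every alternative run, 42 were lost under at least 1 and 0 changed direction. Fits of the compared groups alone lost 21 calls, the fit without KO 68 and 74 with TGFB1 17, no filter 15 and the fit without WT 72 and 75 with IL12 12, whereas DESeq2 size factors, the sex term, the replicate block and DESeq2 lost 1 each and the filter of 10 counts in 5 libraries and the term for title numbers above 70 lost 0. With the compared groups alone, the members called were 6 in place of 2 for KO against WT without cytokine, 10 in place of 16 with TGFB1, 1 in place of 3 with IL12, 7 in place of 14 for IL12 in WT, 12 in place of 6 for IL12 in KO and 1 in place of 3 for the difference between TGFB1 responses. The share of all genes called moved the same way in these comparisons, from 2.1% to 9.38%, 35.6% to 19.4%, 6.78% to 0.299%, 18.9% to 14.01%, 14.2% to 20.5% and 3.3% to 2.73%. Without the filter, 2 in place of 5 were called for TGFB1 in KO and 8 in place of 14 for IL12 in WT, at 9.65% in place of 24.5% and 7.34% in place of 18.9% of a larger set of genes. Without WT 72 and 75, the counts were 0 for KO against WT with IL12, 9 for TGFB1 in KO and 5 for IL12 in WT, with 0.0683%, 27.9% and 6.52% of all genes. Without KO 68 and 74 with TGFB1, chosen after seeing the data, they were 2 for KO against WT with TGFB1, 8 for TGFB1 in KO and 0 for the difference between TGFB1 responses, with 6.47%, 25.6% and 0% of all genes. Leaving out each library in turn gave 0 to 2, 12 to 20 and 1 to 4 calls for KO against WT without cytokine, with TGFB1 and with IL12. It gave 12 to 16 and 2 to 7 for TGFB1 in WT and KO, 9 to 16 and 4 to 6 for IL12 in WT and KO, 0 to 9 for the difference between TGFB1 responses and 0 throughout for IL12. Where a setting changed a count, the cause was not tested. With the title number as a replicate block the counts were 2, 17 and 3 between genotypes, 15 and 4 for TGFB1, 17 and 8 for IL12 and 4 and 0 for the differences, and Sec24d with TGFB1 in KO was lost. The block raised the genes called for the difference between TGFB1 responses from 387 to 1073. The labels do not say that a number is an animal. After removal of group means, 26 of 30 pairs of libraries sharing a number correlated above 0.1 (median 0.222, lowest -0.0339), and in 48 of 60 cases a library correlated best with its own number in another group of its genotype. Each library had 5 candidates in the other group, so such matches were far more frequent than an even spread over the candidates would give. The main tests left pairing by number out and treated the 30 libraries as independent. The block was kept as an alternative because 4 pairs were at or below 0.1 and pairing was accepted only where every pair exceeded it. Depth limits Derl3 most, since it had under 10 counts in some libraries.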
